A study of Danio rerio with 8 samples.

Results

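The genes described here encode the extracellular matrix, the protein scaffold outside cells: collagens, laminins, fibronectins, thrombospondins, fibulins, matrix proteoglycans and the proteins that fold and crosslink collagen. Members were the probe sets (the groups of oligonucleotides that each measure 1 transcript) whose annotated gene symbol belonged to these families, with tgfbi left out. The rule used symbols only, not measured values, but members were chosen with earlier results of these data known. It found 55 of 15502 probe sets, reading 46 of the 8793 genes with a single symbol. RNA came from whole retinas of albino zebrafish (Danio rerio) and was hybridised to 8 Affymetrix zebrafish gene arrays. The 4 light lesion samples were taken after 72 h in constant bright light, which destroys photoreceptors, and the 4 control samples came from unlesioned fish that had gone back to normal lighting. All fish had first been kept in darkness, and the sources used here give neither age nor sex nor the number of fish in a sample. The light itself and the loss of photoreceptors cannot be told apart in this design. The purpose stated for the series was to find genes needed for photoreceptor regeneration.

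Fibrillar collagens form the tensile fibres of matrix, and type II collagen is the main fibrillar collagen of cartilage and of the vitreous, the gel that lies against the inner face of the retina. Fibril-associated collagens such as types IX, XII and XIV do not form fibres themselves but sit on the surface of fibrils, and type IX collagen is a trimer of alpha 1, alpha 2 and alpha 3 chains carried on type II fibrils. Laminins, nidogen and collagens XV and XVIII belong to basement membranes or the matrix next to them. In the retina these include the inner limiting membrane at the Müller glia endfeet and Bruch's membrane under the pigment epithelium.

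Levels are given as log2 RMA values (RMA summarises the probes of a set after normalizing the arrays). Control means were subtracted from light lesion means to give log2 fold changes, tested with limma and called at an adjusted p under 0.05 over all 15502 probe sets. Levels of different probe sets cannot be set against each other. Each was instead read against a background limit of 7.04, the highest mean among 27 control probe sets for bacterial genes. Bacterial control probe sets with a mean above the median of all probe sets had been left out beforehand, so the limit depends on that cut. Of the 55 matrix probe sets, 28 had a mean over the 8 arrays at or under that limit. Near it a fold change is compressed, so a difference that did not pass there says little about the transcript.

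The type II chain col2a1a, the type IX chains col9a1b, col9a2 and col9a3 and the collagens col12a1b and col18a1a were higher in light lesion retinas. So were decorin (dcn), sparc, col15a1a and 1 of 3 probe sets of fibronectin fn1a. The calls of col9a1b and col15a1a were not kept under every alternative setting. Neither were those of col14a1a, lamb2l and thbs4b, the 3 probe sets called lower. No laminin chain passed as higher, and 1 was called lower. In all, 10 matrix probe sets rose and 3 fell, so that 13 of 55 (23.6%) were called, against 40.2% of all probe sets on the array (19.5% higher and 20.7% lower). Of the 27 matrix probe sets with a mean above the limit 11 were called (9 higher, 2 lower), 40.7% against 53.1% of all probe sets above it (26.1% higher and 27.0% lower). Of the 28 at or under the limit 2 were called, against 16.7% of all such probe sets. Over both directions together, matrix probe sets were thus called no more often than the array as a whole. By direction, the 9 of 27 called higher above the limit were a share not under the 26.1% of all. The 2 of 27 called lower there were a share under the 27.0% of all. The median log2 fold change of the 55 matrix probe sets was 0.01, beside -0.04 for all probe sets. Read as genes by the probe set of highest mean, 9 of 46 rose and 3 fell (26.1% called), against 44.5% of all genes (24.4% higher and 20.1% lower). Of the matrix genes 47.8% had a mean at or under the limit, against 26.9% of all genes. Above it, 8 of 24 matrix genes were called higher and 2 lower, beside 1933 and 1573 of 6427 genes. The 2 groups of arrays did not overlap for 18 matrix probe sets, 13 with every light lesion array above and 5 with every light lesion array below, against 40.0% of all probe sets (19.0% above and 21.0% below).

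**Figure D1:**
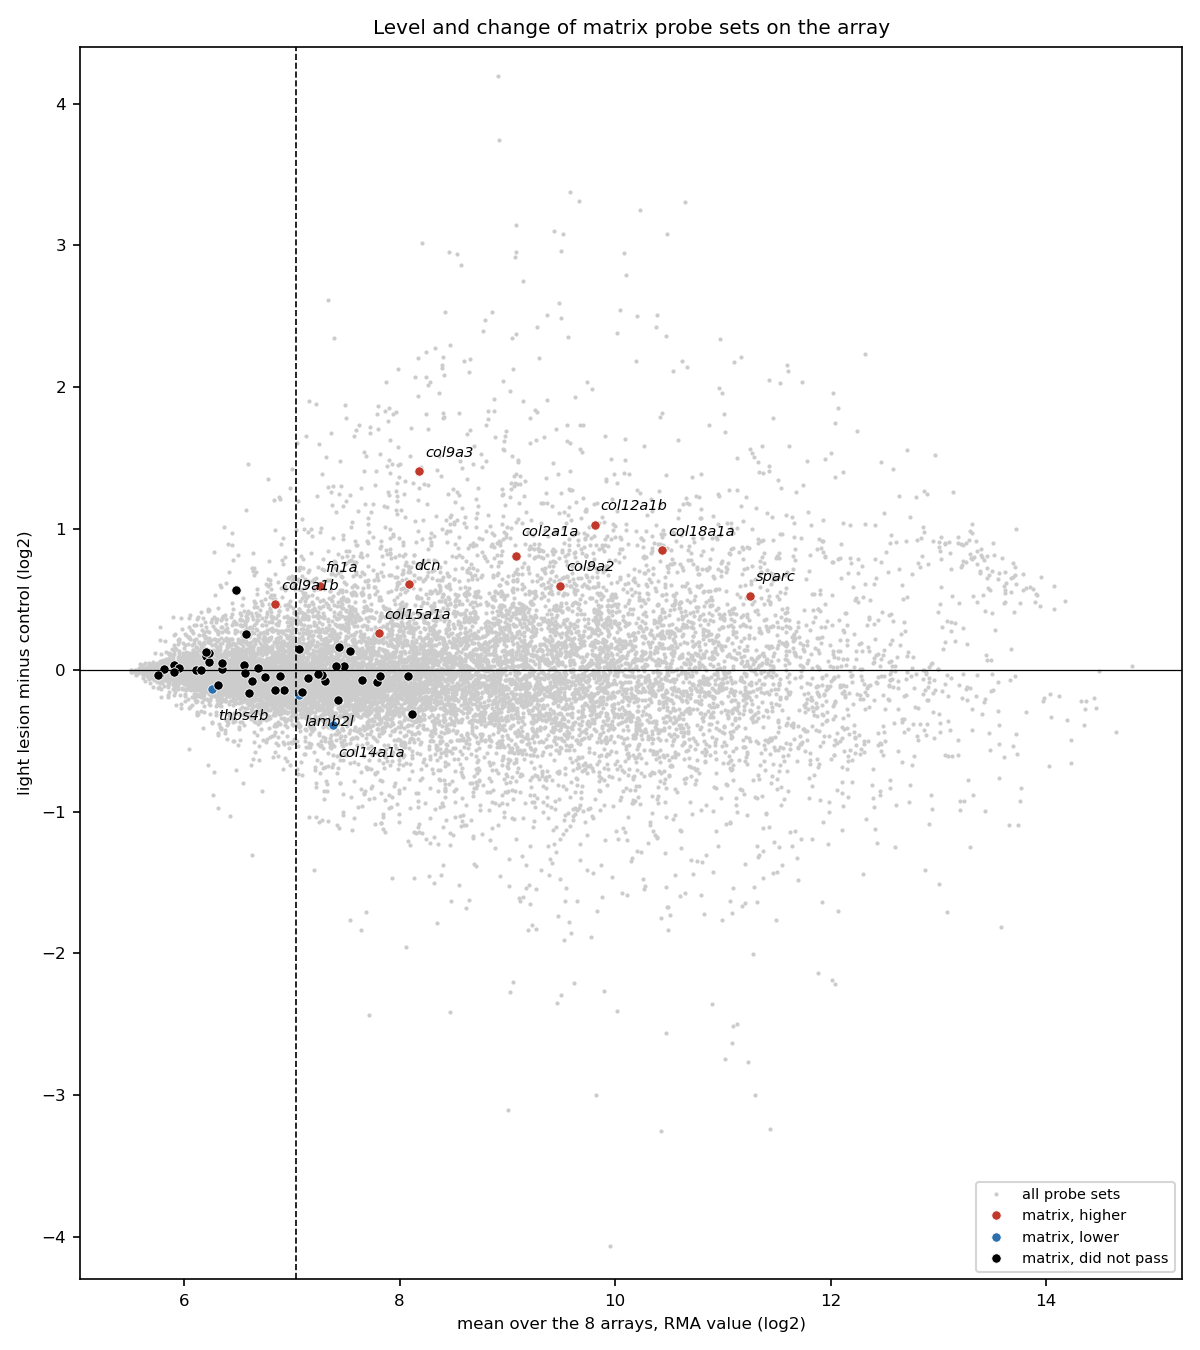
Mean RMA value over the 8 arrays (x axis, log2) against the light lesion minus control difference (y axis, log2) for all 15502 probe sets in grey and the 55 matrix probe sets in red (higher), blue (lower) or black (did not pass), with the background limit of 7.04 as a dashed line. The 10 matrix probe sets that rose include dim ones (col9a1b) and bright ones (sparc), while most of the 42 that did not pass lie left of the line or just right of it.

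Among fibrillar collagens col2a1a, which encodes the alpha 1 chain of type II collagen, rose. Its probe set (of NCBI gene 562496) stood at 9.55, 9.57, 9.46 and 9.35 in light lesion replicates 1 to 4, against 8.61, 8.56, 8.74 and 8.79 in control replicates 1 to 4. Every light lesion array lay at least 0.56 above every control. The rise was 1.75-fold (log2 fold change 0.81, SE 0.07, adjusted p = 1.84e-05). The other 8 fibrillar collagen probe sets did not pass, with log2 fold changes from -0.21 to 0.14 and adjusted p from 0.0984 to 0.836. They include the type I chains of bone and scar, col1a1a, at 7.43 ± 0.09 in light lesion and 7.40 ± 0.10 in control samples (SD, n = 4 each), and col1a2, at or under the limit with both of its probe sets. The chain of type XI collagen that is copolymerised with type II, col11a1a, was at 7.50 ± 0.05 and 7.48 ± 0.10, and col11a2 at 7.32 ± 0.08 and 7.54 ± 0.20, in light lesion and control samples in that order. Of the type V chain col5a2a the brighter probe set was at 7.61 ± 0.13 in light lesion and 7.47 ± 0.15 in control samples, and it passed as higher with each array's background as a covariate (log2 fold change 0.21, adjusted p = 0.0446). Without control replicate 1 col11a2 passed as lower (log2 fold change -0.30, adjusted p = 0.0159), as did the dimmer probe set of col1a1a (-0.21, adjusted p = 0.0467).

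All 3 measured chains of type IX collagen rose. The alpha 3 chain col9a3 (NCBI gene 567110) had the largest log2 fold change of the 55 matrix probe sets. It stood at 8.62, 9.41, 9.04 and 8.48 in light lesion replicates 1 to 4, against 7.63, 7.58, 7.40 and 7.32 in controls. The light lesion arrays spread over 0.93 and the controls over 0.31, and the groups lay 0.85 apart at their nearest. The rise was 2.65-fold (log2 fold change 1.41, SE 0.18, adjusted p = 2.28e-04). The alpha 2 chain col9a2 (NCBI gene 321212) stood at 9.55, 9.93, 9.72 and 9.96 in light lesion samples, against 9.28, 9.15, 9.21 and 9.14 in controls, higher by 1.51-fold (0.60 ± 0.09 on the log2 scale, SE, limma adjusted p = 5.64e-04). The alpha 1 chain col9a1b (NCBI gene 406548) was dim, at 6.91, 7.53, 6.995 and 6.89 in light lesion samples and 6.48, 6.50, 6.86 and 6.62 in controls. Only light lesion replicate 2 exceeded the background limit, and the nearest arrays of the 2 groups were 0.03 apart. Its log2 fold change was 0.47 (SE 0.14, limma adjusted p = 0.0283). The light lesion mean stood only 1.03-fold over the limit, and that through replicate 2 alone, so no firm lower bound on the rise can be given. The call of col9a1b was lost without control replicate 1 (adjusted p = 0.0703), 2 (adjusted p = 0.0774) or 4 (adjusted p = 0.0631), with log2 fold changes from 0.42 to 0.47.

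The remaining fibril-associated collagens moved apart. The type XII chain col12a1b (NCBI gene 562946) stood at 10.18, 10.32, 10.52 and 10.30 in light lesion samples, against 9.44, 9.25, 9.23 and 9.29 in controls. Its rise was 2.04-fold (1.03 ± 0.08 on the log2 scale, SE, limma adjusted p = 7.90e-06), and the groups were 0.73 apart at their nearest. The type XIV chain col14a1a (NCBI gene 321298) fell, at 7.18, 7.30, 6.95 and 7.31 in light lesion samples and 7.58, 7.53, 7.64 and 7.55 in controls (log2 fold change -0.39, SE 0.08, adjusted p = 0.00311). Its group means lay above the limit by 0.15 in light lesion and 0.54 in control samples, though light lesion replicate 3 lay under it. The type XXVIII chain col28a1a stood at 7.23 ± 0.03 in light lesion and 7.26 ± 0.07 in control samples and did not pass. The type VI, VIII, X and XVII chains and col28a2a (col6a3, col8a1a, col10a1a, col10a1b and col17a1b beside it) lay at or under the limit in both groups, with log2 fold changes from -0.14 to 0.01 at the probe set read for each gene.

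**Figure D2:**
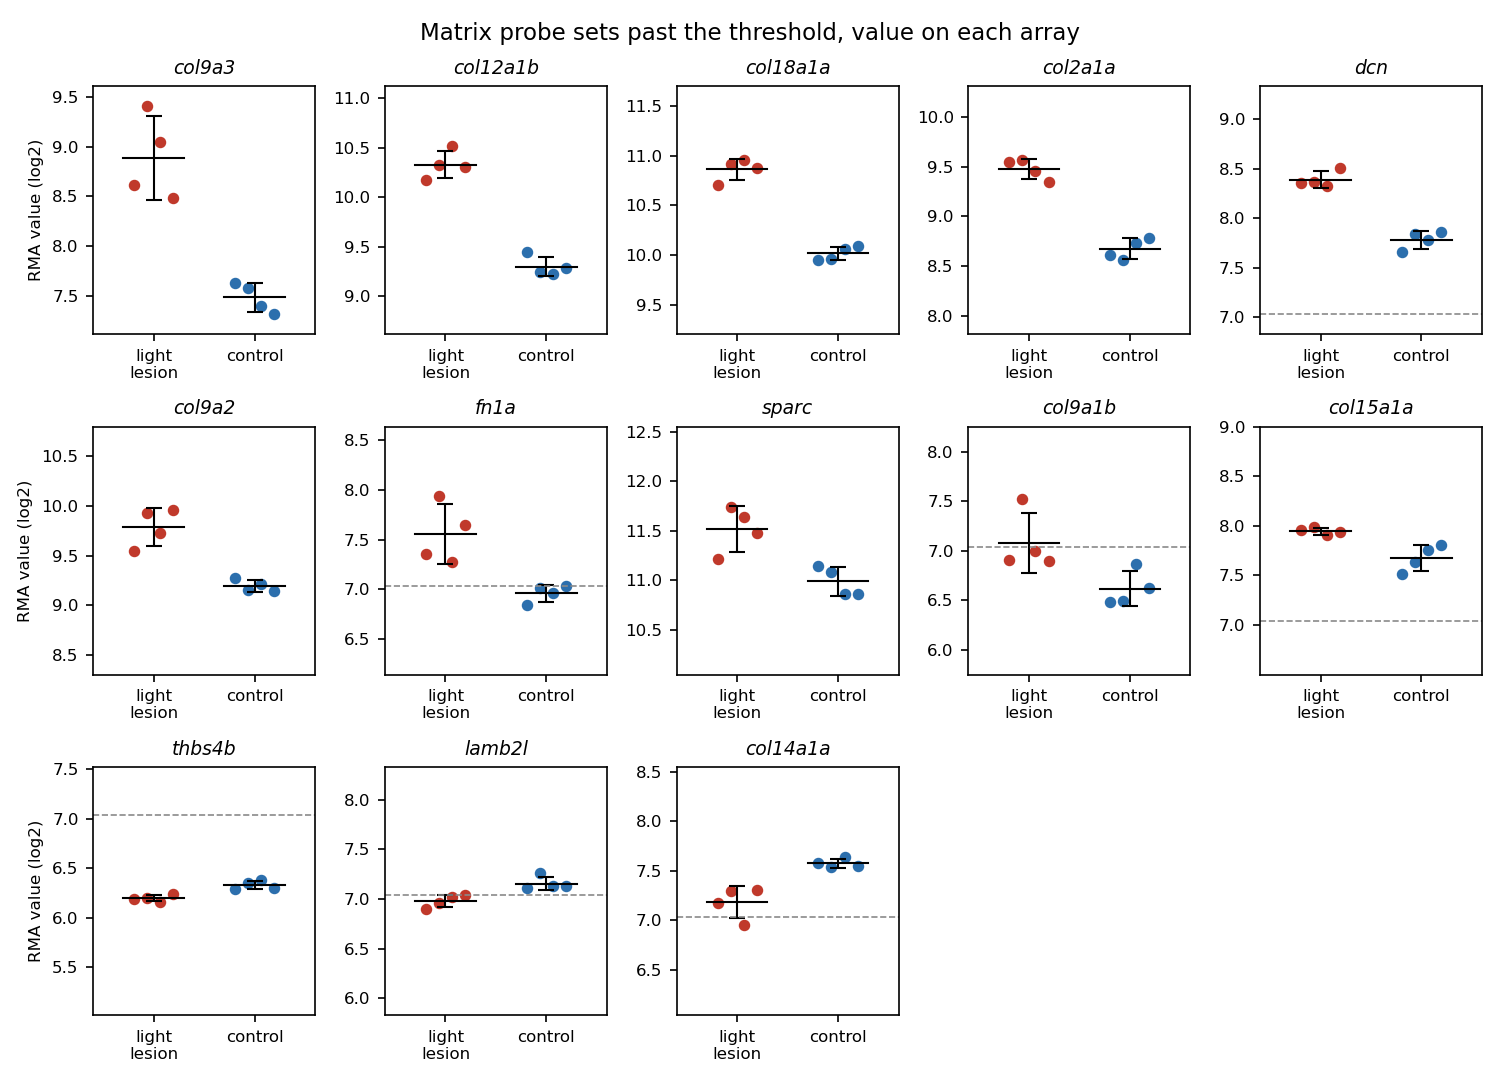
RMA value (y axis, log2) on each light lesion array (red, left) and each control array (blue, right) for the 13 matrix probe sets past the threshold, ordered by log2 fold change. Black lines are means with SD (n = 4), dashed lines mark the background limit of 7.04 where it falls in a panel, and every panel spans the same height. The groups do not overlap in any panel, and the gap is widest for col9a3 and col12a1b and narrowest for col9a1b and thbs4b.

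Among the basement membrane genes read 2 collagens rose, and no laminin chain passed as higher. The symbol rule also covered type IV collagens and hspg2, but no member probe set read them. The type XVIII chain col18a1a (NCBI gene 564123), whose C-terminal fragment is endostatin, stood at 10.71, 10.92, 10.95 and 10.88 in light lesion samples and 9.95, 9.96, 10.06 and 10.09 in controls. All light lesion arrays lay at least 0.62 above all controls, higher by 1.80-fold (0.85 ± 0.06 on the log2 scale, SE, limma adjusted p = 7.65e-06). Its relative col15a1a (NCBI gene 792366) rose less, at 7.95, 7.99, 7.90 and 7.93 in light lesion samples against 7.52, 7.63, 7.76 and 7.81 in controls (1.2-fold, 0.26 ± 0.07 on the log2 scale, SE, limma adjusted p = 0.0106). The second gene copy, col15a1b, stood at 8.06 ± 0.21 in light lesion and 8.10 ± 0.06 in control samples (log2 fold change -0.04, adjusted p = 0.748). The changes of the 2 copies differed by 0.31, which did not pass (exact permutation test, two-sided p = 0.0857, where 4 against 4 arrays allow 0.0286). It was the only pair of gene copies with both above the limit, so no further pair was tested. Without light lesion replicate 3 the difference was 0.41, with p = 0.0286 in the exact permutation test, the smallest that 3 against 4 arrays allow. It did not pass in the omission of any other array, at 0.22 to 0.35 (exact permutation test, p from 0.0857 to 0.229).

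Laminins are trimers of an alpha, a beta and a gamma chain, and 8 probe sets read 7 chains. The beta chain lamb2l (NCBI gene 553337) was called lower, at 6.90, 6.96, 7.02 and 7.04 in light lesion samples and 7.11, 7.26, 7.13 and 7.13 in controls (log2 fold change -0.17, SE 0.05, adjusted p = 0.0262). These values lie on either side of the background limit. The call was lost without control replicate 2 (adjusted p = 0.0792) or 4 (adjusted p = 0.0511) and without light lesion replicate 1 (adjusted p = 0.0614) or 2 (adjusted p = 0.0643). It was also lost with the replicate number as a block (adjusted p = 0.0626) and after a second quantile normalization (limma adjusted p = 0.0601). The other 7 probe sets did not pass, with log2 fold changes from -0.11 to 0.10. The alpha chains lama4 and lama5 were above the limit in both groups, lama4 at 7.80 ± 0.11 in light lesion and 7.84 ± 0.29 in control samples and lama5 at 7.13 ± 0.04 and 7.18 ± 0.07 in the same order. The chains lamb1a, lamb4, lamc1 and lamc3 and the laminin-binding nidogen nid1a were at or under the limit in both groups. Under 5 alternative settings, one of them the omission of control replicate 3, lamc1 passed as higher (log2 fold change 0.10 to 0.13, adjusted p from 0.0243 to 0.0429). With a trended and robust variance prior lamb4 passed as lower (-0.11, adjusted p = 0.0433).

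Among adhesive and matricellular glycoproteins sparc, a secreted collagen-binding glycoprotein, rose. Its probe set (of NCBI gene 321357) stood at 11.21, 11.74, 11.64 and 11.47 in light lesion samples, against 11.14, 11.09, 10.87 and 10.86 in controls. The lowest light lesion array was 0.07 above the highest control, and the rise was 1.44-fold (log2 fold change 0.53, SE 0.12, adjusted p = 0.00506). Fibronectin, the adhesive protein of provisional matrix, gave no single answer, since the 3 probe sets of fn1a (NCBI gene 100005469) disagreed. The brightest was at 7.80, 7.55, 7.68 and 7.97 in light lesion samples and 7.57, 7.70, 8.11 and 7.95 in controls (log2 fold change -0.08, adjusted p = 0.642). The second was at 7.36, 7.94, 7.28 and 7.65 in light lesion samples and at 6.84, 7.01, 6.96 and 7.03 in controls, all 4 controls under the background limit. It rose by 0.60 ± 0.13 on the log2 scale (SE, limma adjusted p = 0.00536). Its light lesion mean stood 1.43-fold over the limit, a value that depends on the limit chosen. The third was under the limit in both groups, at 6.12 ± 0.02 in light lesion and 6.11 ± 0.03 in control samples.

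The other fibronectin gene, fn1b, was under the limit in both groups, at 6.70 ± 0.25 in light lesion and 6.45 ± 0.07 in control samples (adjusted p = 0.0985). Thrombospondins are secreted multimers that bind matrix and cell surfaces. The thbs1b probe set was above the limit on every array, at 7.63, 8.16, 8.07 and 7.99 in light lesion samples and 8.53, 8.24, 8.07 and 8.24 in controls (log2 fold change -0.31, SE 0.13, adjusted p = 0.0813). It passed as lower with each array's background as a covariate (log2 fold change -0.43, adjusted p = 0.00876). The thbs3a probe set was at 7.52 ± 0.11 in light lesion and 7.36 ± 0.10 in control samples (adjusted p = 0.102) and passed as higher under 3 alternative settings, one of them the omission of control replicate 3 (log2 fold change 0.17 to 0.21, adjusted p from 0.0334 to 0.0485). The thbs4b probe set (NCBI gene 252850) was called lower by 0.13 (SE 0.04, adjusted p = 0.0390) but was far under the limit, at 6.19, 6.20, 6.16 and 6.24 in light lesion samples and 6.29, 6.36, 6.38 and 6.30 in controls. That call was lost in the omission of control replicate 2, 3 or 4 or of light lesion replicate 1, 2 or 3 (adjusted p from 0.0625 to 0.104). It was also lost with the replicate number as a block (adjusted p = 0.111) and after a second quantile normalization (limma adjusted p = 0.0528). The tenascin tncb was under the limit in both groups with both probe sets.

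Of 6 proteoglycans and matrilins dcn rose. Decorin is a small leucine-rich proteoglycan that binds collagen fibrils, and its probe set (of NCBI gene 64698) stood at 8.36, 8.37, 8.32 and 8.51 in light lesion samples, against 7.66, 7.84, 7.78 and 7.86 in controls. The groups were 0.46 apart at their nearest, and the rise was 1.52-fold (log2 fold change 0.61, SE 0.06, adjusted p = 5.30e-05). The cartilage matrilin matn1 stood at 7.62 ± 0.10 in light lesion and 7.68 ± 0.09 in control samples and did not pass. The biglycan gene bgnb, the neurocan gene ncana, the versican gene vcanb and matn4 were at or under the limit in both groups. For matn4 every light lesion array lay above every control (log2 fold change 0.13, adjusted p = 0.0509), and it passed under 6 alternative settings, one of them the omission of control replicate 3 (0.12 to 0.15, adjusted p from 0.00921 to 0.0290). The elastic fibre protein fbln1, the only fibulin measured, stood at 7.26 ± 0.09 in light lesion and 7.30 ± 0.14 in control samples at its brighter probe set.

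None of the 3 genes for collagen folding and crosslinking passed, with unadjusted p from 0.0849 to 0.833 in limma. The collagen chaperone serpinh1b (Hsp47) stood at 7.93, 6.90, 6.05 and 6.18 in light lesion replicates 1 to 4, against 6.15, 6.12, 6.22 and 6.30 in controls. Light lesion replicates 1 and 2 lay above all controls, and replicates 3 and 4 among or below them. Both group means of serpinh1b lay under the background limit, and light lesion replicate 1 was the only array over it. Its log2 fold change of 0.57 (SE 0.35, adjusted p = 0.236) was 0.18 without light lesion replicate 1. The lysyl oxidases, which crosslink collagen, were at 7.14 ± 0.13 in light lesion and 6.99 ± 0.10 in control samples for loxl2b. In the same order loxa was at 5.81 ± 0.06 and 5.81 ± 0.01. The group means of loxl2b lay on either side of the limit, and both of loxa lay under it.

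**Figure D3:**
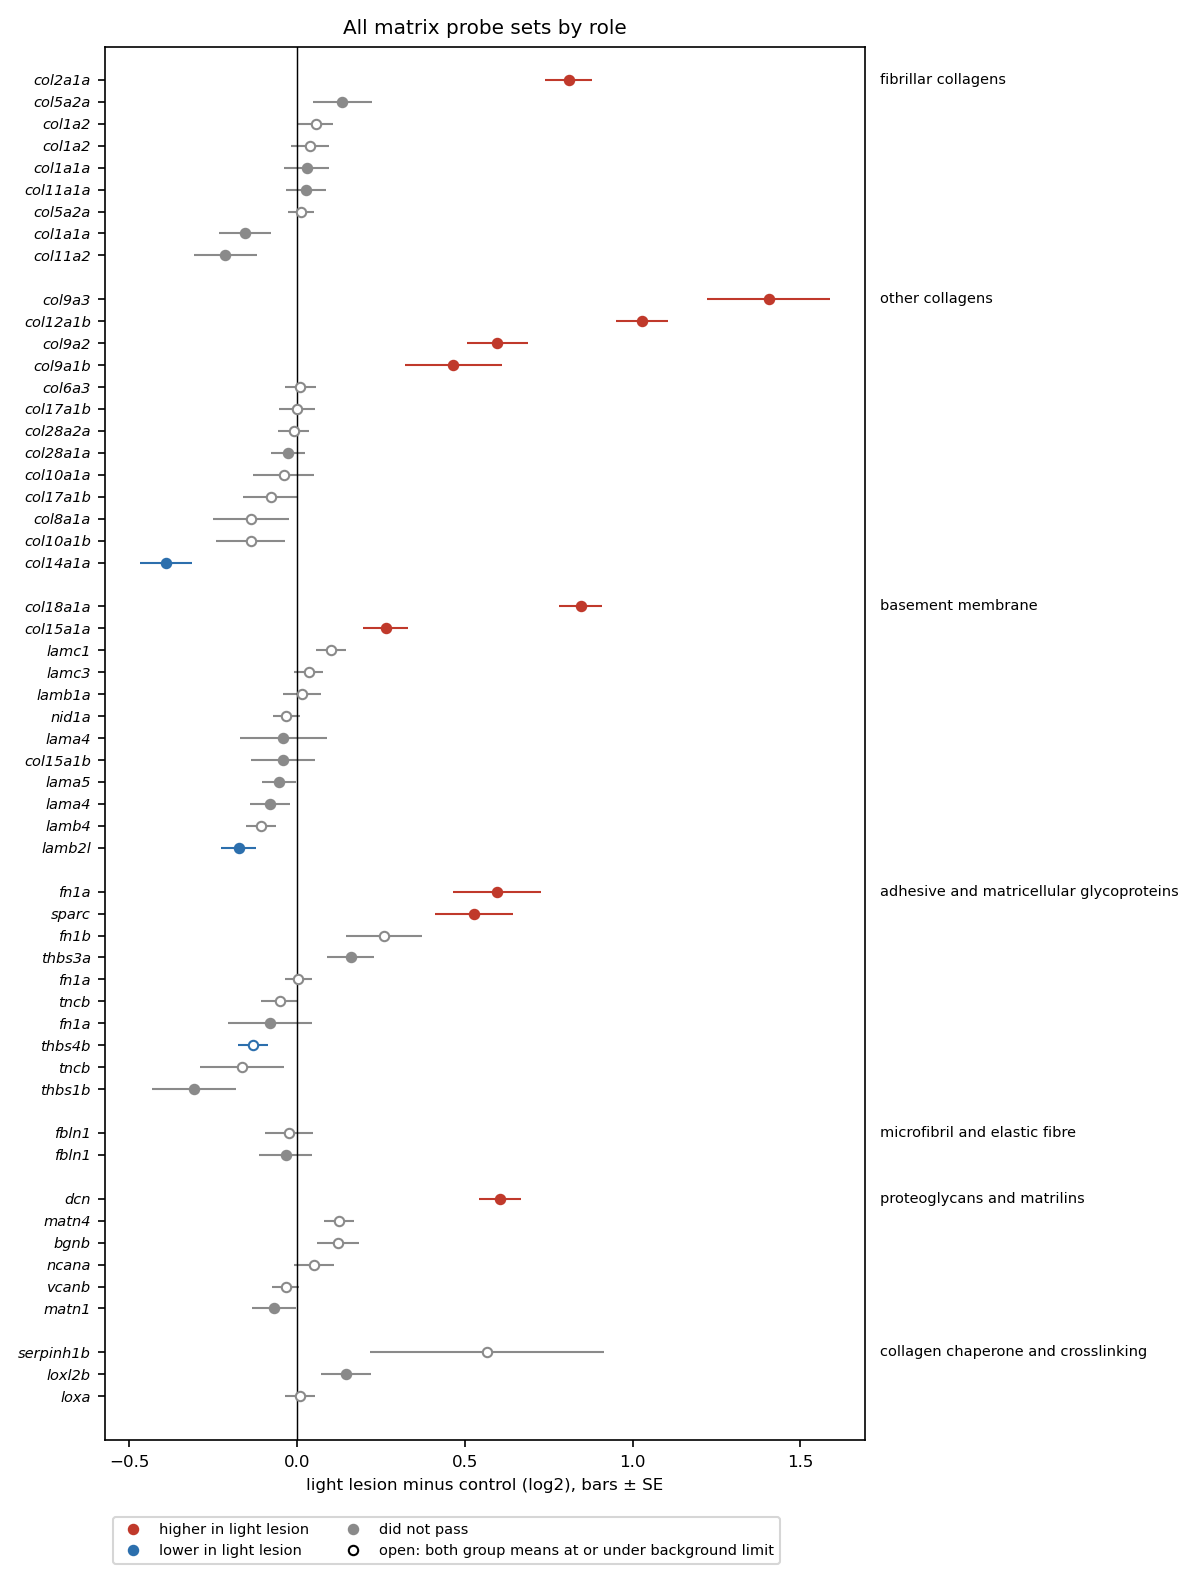
Light lesion minus control difference (x axis, log2, bars ± SE from the fit) of each of the 55 matrix probe sets, grouped by role, with genes of several probe sets listed once per probe set. Red points rose, blue points fell, grey points did not pass, and open points have both group means at or under the background limit. Most points lie near 0, the rises of col9a3 and col12a1b reach furthest right, and serpinh1b, which did not pass, has the widest bar.

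The 10 probe sets that rose did not rank the light lesion arrays alike. Light lesion replicate 2 was the highest of the 4 for 6 of them (col9a3, col9a1b, col2a1a, col15a1a, sparc and the second fn1a probe set), replicate 3 for col12a1b and col18a1a, and replicate 4 for col9a2 and dcn. Replicate 1 was the lowest for 4 and the highest for none. The light lesion arrays spread further than the controls for 7 of the 10. Relative to the control mean, col9a3 was higher by 1.14, 1.93, 1.56 and 1.00 in replicates 1 to 4, whereas dcn was higher by 0.57, 0.58, 0.54 and 0.73.

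The arrays themselves had medians from 7.63 to 7.69. The mean of the bacterial control probe sets ran from 6.29 to 6.39 in light lesion samples and from 6.31 to 6.55 in controls, with the highest value in control replicate 3. The GAPDH control probe sets, which bear on RNA quality, differed between the 3′ and the 5′ end by a 3′ minus 5′ value that ran from 0.158 to 0.285 in light lesion samples and from 0.0297 to 0.0774 in controls. The groups did not overlap in that difference (exact permutation test, two-sided p = 0.0286), so its part and that of the lesion cannot be told apart. With that difference as a covariate, chosen after seeing the data, col9a3, col12a1b, col18a1a, col2a1a, col9a2, dcn, sparc and the second fn1a probe set remained called higher. The calls of col15a1a (adjusted p = 0.368) and col9a1b (adjusted p = 0.169) were lost, as were those of col14a1a (adjusted p = 0.473), lamb2l (adjusted p = 0.790) and thbs4b (adjusted p = 0.521). In that fit the log2 fold changes of sparc (1.08), the second fn1a probe set (1.26), col9a2 (1.06) and col9a1b (0.80) were over 1.5 times their values without the covariate. Those of col14a1a (-0.22) and lamb2l (-0.06) were smaller in size. Those of col15a1a (0.25, against 0.26 without the covariate) and thbs4b (-0.12, against -0.13) changed little, though both calls were lost.

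Genes that modify, bind and cut matrix were read from other lists, given by their counts because they too were chosen with results of these data known. The shares called in 3 of these lists lay near the 44.5% of all genes, at 46.2% of collagen processing genes, 44.4% of matrix receptors and 43.8% of matrix proteases and inhibitors, and TGF-beta genes were called in 55.6%. Of 13 measured collagen processing genes 5 rose and 1 fell, though p4ha1b, which fell, and pcolcea, which rose, lay at or under the background limit in both groups. The cyclophilin ppib, a prolyl isomerase that acts on collagen in the endoplasmic reticulum, stood at 12.22, 12.13, 12.19 and 11.98 in light lesion samples, against 10.72, 10.62, 10.85 and 10.71 in controls (2.65-fold, adjusted p = 6.17e-07). Its partner in the prolyl 3-hydroxylation complex, crtap, was higher by 0.69 on the log2 scale (adjusted p = 2.55e-05) and the lysyl hydroxylase plod3 by 0.55 (adjusted p = 0.00175). Of 9 matrix receptors 2 rose and 2 fell. The transmembrane proteoglycan sdc4 was higher by 1.35 on the log2 scale, the integrin subunit itgb5 lower (log2 fold change -0.67) and the glypican gpc1b lower (-0.46). Of 16 matrix proteases and inhibitors 7 rose and none fell. Among them were the metalloproteinase mmp9 (log2 fold change 3.74, with 2 of 4 controls under the background limit) and the protease inhibitor serpine2 (0.70). The metalloproteinase mmp14b also rose, its light lesion mean standing 1.41-fold over the limit and its controls under it. Of 9 genes of TGF-beta signalling and its matrix targets 2 rose and 3 fell, with smad3b at -0.42, smad3a at -0.33 and ccn2a at -0.60, on the log2 scale.

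Markers of cells that make matrix or could have been carried along with the dissected retina were read beside these results. Their counts stand beside 44.5% of all genes called (24.4% higher and 20.1% lower). Of probe sets with a mean at or under the background limit 16.7% were called, so few calls are expected in dim lists. Whole-retina RNA cannot tell fewer cells of a type from less RNA per cell. None of 9 cartilage markers was called by limma (1 had an unadjusted p under 0.05), and their mean log2 level ran from 6.83 to 6.96 in light lesion samples and from 6.87 to 7.14 in controls. Among them sox9a, the aggrecan gene acanb, ucmaa, hapln1a and cnmd were at or under the limit in both groups. The others were above it in both groups, sox9b at 7.89 in light lesion and 8.04 in control samples. In the same order runx2b was at 7.70 and 7.88, runx2a at 7.44 and 7.57 and runx3 at 7.45 and 7.55. Of 9 markers of fibroblasts, sclera and periocular mesenchyme 1 was called (pcolcea, dim in both groups), and 8 lay at or under the limit. The other, kera, was well above it, at 9.57 in light lesion and 10.31 in control samples, and was not called. The list mean ran from 6.84 to 6.98 in light lesion samples and from 6.94 to 7.10 in controls. None of 8 endothelial markers was called by limma (0 had an unadjusted p under 0.05), and 6 of them, kdrl, tek and tie1 included, lay at or under the limit, with a list mean from 6.55 to 6.60 in light lesion samples and from 6.53 to 6.70 in controls. Of 6 mural and smooth muscle markers 2 fell, rgs5a (log2 fold change -1.36) and tpm1 (-0.29).

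Markers of the retina's own cells and of neighbouring tissues were read in the same way, beside the same share of all genes (24.4% higher and 20.1% lower). Of 15 Müller glia markers 9 rose and 3 fell, with a list mean from 11.05 to 11.13 in light lesion samples and from 10.64 to 10.72 in controls. Those that fell were cahz (log2 fold change -0.64), aqp1a.1 (-0.41) and glula (-0.21), so the list did not move as a whole. The gene apoeb, which rose, was counted both here and among the leukocyte and microglia markers. Of 14 leukocyte and microglia markers 13 rose and none fell (8.90 to 9.12 in light lesion samples, 8.16 to 8.23 in controls), and of 7 pigment epithelium markers 5 rose and none fell (11.13 to 11.34 in light lesion samples, 10.09 to 10.15 in controls). Among 19 markers of cornea and skin, 4 rose and 2 fell (31.6% called, list mean 7.18 to 7.27 in light lesion samples, 7.02 to 7.12 in controls). Their median log2 fold change was 0.01, the largest changes were those of icn (2.03) and krt8 (0.98), and krt94, cdh1 and krt4 were called at or under the limit in both groups. Of 7 lens markers 1 fell, and the list means overlapped (7.22 to 7.65 in light lesion samples, 7.23 to 7.53 in controls). Light lesion replicate 1, the array with the highest serpinh1b value, was also the highest of the 8 arrays for the crystallins crygs1 (8.30, other light lesion arrays 6.81 to 7.08) and cryaa (8.40, other light lesion arrays 7.52 to 7.96). It was the highest for crybb1 too (7.32). The other lens markers were highest elsewhere, crygm4 on control replicate 2, bfsp2 and gja8b on control replicate 3 and cryba4 on light lesion replicate 3. Of 19 photoreceptor markers 16 fell and 1 rose (11.76 to 11.93 in light lesion samples, 12.96 to 13.05 in controls). The part of these cell types in the matrix changes was not tested.

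**Figure D4:**
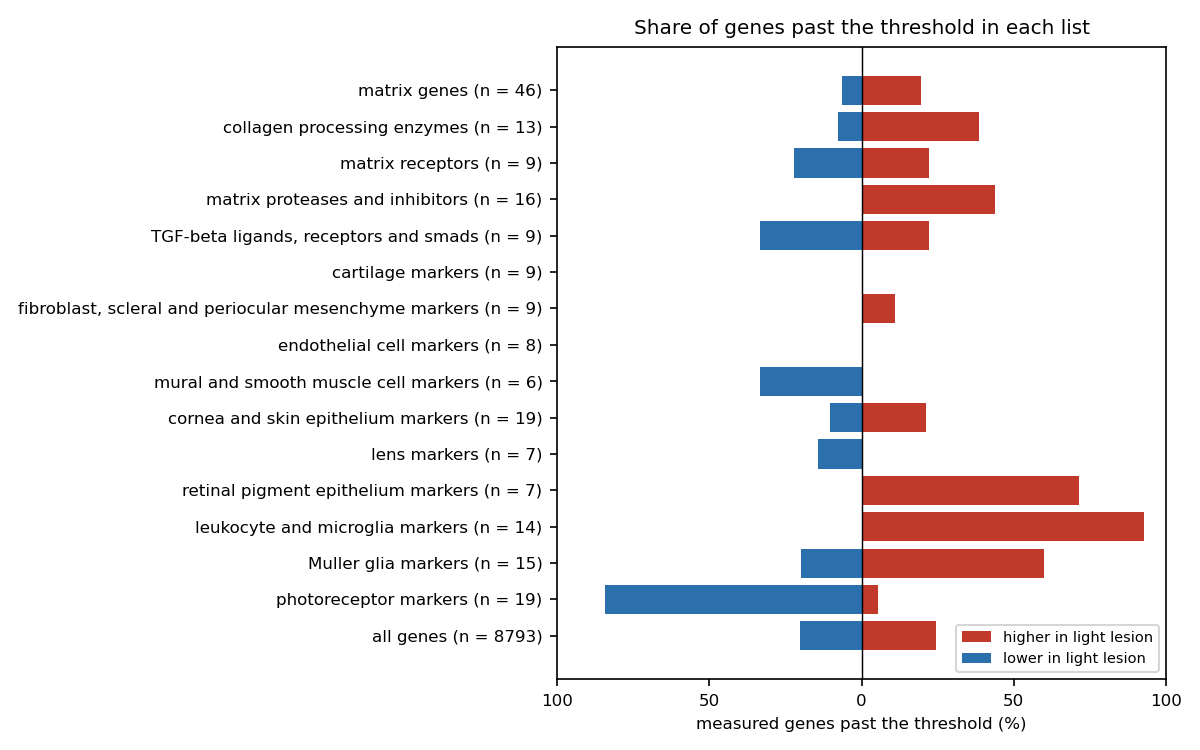
Share of measured genes called higher (red, to the right) or lower (blue, to the left) in light lesion samples, in percent (x axis), for the matrix genes, 14 other lists and all genes. Matrix genes, with 9 of 46 higher and 3 lower, lie under the share of all genes in both directions, and cartilage and endothelial markers have no bar. The shares are not matched for level, since 47.8% of matrix genes but 26.9% of all genes had a mean at or under the background limit.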

How the data were processed

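For each probe set and array the authors deposited a single log2 value, which the submitters' processing notes credit to RMA. The sources used here name no version, no further step and no genome build, and base 2 of the logarithm was taken from how far the values range. Sample titles gave the group and the replicate number. No label says that replicates were separate fish, so the p-values refer to the spread between these samples alone, and that spread may be technical. The number of arrays limits the precision.

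From 15617 probe sets, 115 control probe sets were removed. Genes were named from the platform annotation, 55 of 55 members were found by gene identifier in the RefSeq table, and where a gene had several probe sets the one of highest mean stood for it. Fits used limma 3.58.1 in R 4.3.3 (lmFit, eBayes, two-sided, no covariate, no filter) with Benjamini-Hochberg adjustment over 15502 probe sets. The code was run on simulated data in which few probe sets changed, all of them upward. That setting is unlike these data, so the run checks the code and not the calls made here. Alternatives covered the replicate block, normalization, filters, the variance prior, array weights, the threshold, covariates and leaving out each array. Named were every called member with all its probe sets, other genes above the limit in both groups, and up to 3 called genes per other list. Dim or uncalled members given with values outside this rule (fn1b, matn4, lamc1, lamb4, loxl2b, loxa, serpinh1b) were chosen after their values were seen. So were p4ha1b, kera, the marker genes named as dim or above the limit, the lens markers named and the Müller glia markers that fell. Members and lists were chosen with earlier results of these data known.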

Additional observations from a re-analysis of the deposited data

Results flagged for a closer look

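In 8 of 110 groups of 4 arrays (each of 55 probe sets in light lesion and in control samples) 1 array lay far from the other 3, where chance gives about 1 group in 20. Among called genes, col9a1b was at 7.53 in light lesion replicate 2, against 6.89 to 6.995 in the other light lesion samples. Its log2 fold change without that array was 0.32 (limma, adjusted p = 0.0291). For lamb2l, control replicate 2 was at 7.26 and the other controls at 7.11 to 7.13, and the call was lost without it (log2 fold change -0.14, limma, adjusted p = 0.0792).

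The remaining 6 were in probe sets that did not pass. Light lesion replicate 2 was the low array for col8a1a (6.62, others 6.81 to 6.84), col10a1b (6.74, others 6.89 to 6.91) and the brighter fbln1 probe set (7.13, others 7.30 to 7.32). Control replicate 3 was high for lamc1 (6.23, others 6.11 to 6.13), control replicate 2 was high for vcanb (5.80, others at 5.77), and control replicate 1 was low for loxl2b (6.84, others 7.03 to 7.06).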

How the results depend on the processing

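Of the 13 matrix calls, 8 passed under every setting run: col9a3, col12a1b, col18a1a, col2a1a, col9a2, dcn, sparc and the second fn1a probe set. These were 18 settings, but 17 for the second fn1a probe set. It was not run with the mean of all probe sets of a gene, since another probe set was read for fn1a. The number of matrix probe sets called lower, 3, was 1 with the replicate number as a block, after a second quantile normalization and at a threshold of 0.01, and 0 with the GAPDH covariate (limma; 2 at an unadjusted p under 0.05), and the same held for genes called lower. With that covariate 1572 of all probe sets were called higher and 1036 lower, against 3029 and 3203 without it. The groups did not overlap in that covariate, so its part and that of the lesion cannot be told apart, and the cause was not tested. Leaving out 1 array gave 9 to 13 matrix probe sets called higher and 1 to 5 lower (8 to 12 and 1 to 4 genes), 2618 to 3078 and 2634 to 3161 of all probe sets, and a col15a1a minus col15a1b difference from 0.22 to 0.41. At a threshold of 0.01, 8 matrix probe sets were called higher, beside 2256 of all probe sets called higher and 2139 called lower. Of all probe sets, 2826 were called lower with the replicate number as a block and 3363 after a second quantile normalization. The main fit called 3203 lower. Same-numbered samples did not deviate together in every pair (correlations of -0.21, 0.28, -0.24 and 0.17 for numbers 1 to 4), so the number was not taken as a pairing. With the replicate number as a block the col9a1b call held (adjusted p = 0.0447) and those of lamb2l and thbs4b alone were lost among the 13. With the highest single background value, 7.34, as the limit, 19 rather than 27 matrix probe sets had a mean above it. Of the 42 probe sets that did not pass, 9 passed under at least 1 setting, and 25 changed sign under at least 1, serpinh1b and thbs1b among them with the GAPDH covariate (-0.75 and 0.34, neither past the threshold).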

Other observations

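The gene kera encodes keratocan, a small leucine-rich proteoglycan of the corneal stroma related to decorin. It lay outside the symbol rule but was on the list of fibroblast, sclera and periocular mesenchyme markers. It stood at 8.61, 9.42, 10.18 and 10.06 in light lesion replicates 1 to 4, against 10.64, 10.25, 10.15 and 10.22 in controls. The groups overlapped, and the log2 fold change of -0.75 (SE 0.31) did not pass in limma (adjusted p = 0.0816). Light lesion replicate 1 had the lowest kera value and the highest serpinh1b value of the 8 arrays.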
